A study of Mus musculus with 6 samples.

Results

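Myl9, the regulatory light chain of smooth muscle and non-muscle myosin II, and 9 other genes of the contractile actomyosin apparatus were examined after depletion of the long non-coding RNA Dali. The 10 genes were Myl9, Acta2, Tagln, Cnn1, Cnn2, Tpm1, Tpm2, Actn1, Myh9 and Mylk. Each was taken as the probe sets whose only annotated gene symbol was that name, which gave 11 of 21789 such probe sets on the array (2 for Myh9 and 1 for each of the others). Myl9 was chosen by its array values in this same comparison, where it had the largest increase, so its change is given as a description with no test. The other 9 genes were added by name, to ask whether the Myl9 change was shared by contractile genes of the type controlled by serum response factor (SRF).

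The cells were N2A, a mouse neuroblastoma line. Cells of the Dali knockdown group were transiently transfected with 1.5 ug of a vector expressing a short hairpin RNA against Dali, and control cells with the same amount of a non-targeting vector. There were 3 arrays per group, and RNA was extracted 2.5 days later, of which 200 ng was labelled for Affymetrix Mouse Gene 1.0 ST arrays. The arrays compare 1 Dali construct with 1 control vector in a single cell line, and no selection of transfected cells is described. Dali itself was not analysed here, so its depletion was not checked on these arrays. The replicates are called biological in the series description, without naming separate cultures or days. The p-values therefore cover variation among these 6 arrays, which may be technical. All values are log2 RMA signals, in which a difference of 1 is a doubling. In bulk RNA of this kind fewer cells expressing a gene and less RNA per cell cannot be told apart.

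In a contractile cell, myosin II motors pull on actin filaments that are held together by alpha-actinin and lined by tropomyosin. Phosphorylation of the regulatory light chain, by myosin light chain kinase and other kinases, switches the motor on, and calponins and transgelin bind the filament and stabilise it or slow the motor. Many genes of this apparatus are activated by SRF together with cofactors of the myocardin family, through a DNA element named the CArG box. In neuroblasts, actomyosin works in the cell cortex and growth cone, whereas the smooth muscle forms are typical of vessels and of myofibroblasts.

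The CArG box was searched because the genes were grouped as SRF-type. It consists of CC, 6 bases that are each A or T, and GG, and it reads the same on both strands. Windows of 300 bases, from 250 before to 50 after an annotated transcript start (RefSeq, build GRCm38.p6), were found for 9 of the 10 genes. No window was listed under the symbol Tagln. An exact box lay in 2 of these 9 windows (22.2%), those of Myl9 and Cnn2, against 1.63% of all 32851 windows. With 1 G or C allowed among the 6 inner bases, Acta2 was added (33.3% of the 9), against 9.98% of all windows. Because the genes were grouped as SRF-type beforehand, these higher shares are a description and give no support to that grouping. The windows of Cnn1, Tpm1, Tpm2, Actn1, Myh9 and Mylk held no match to either form, which says only that these letters are not in this stretch. Srf itself, shown because its probe set is described with the results, had 2 exact boxes. The boxes are shown in capitals with 20 bases on either side, 5′ to 3′ on the strand of the gene.
Myl9 exact box, chr2:156775283-156775332, plus strand: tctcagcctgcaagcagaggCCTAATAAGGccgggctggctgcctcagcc
Myl9 box with 1 mismatch, chr2:156775345-156775394, plus strand: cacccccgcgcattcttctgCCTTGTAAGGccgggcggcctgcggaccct
Cnn2 exact box, chr10:79988524-79988573, plus strand: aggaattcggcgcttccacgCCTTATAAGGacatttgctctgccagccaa
Acta2 distal box with 1 mismatch, chr19:34255428-34255477, minus strand: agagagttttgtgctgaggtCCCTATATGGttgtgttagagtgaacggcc
Acta2 proximal box with 1 mismatch, chr19:34255378-34255427, minus strand: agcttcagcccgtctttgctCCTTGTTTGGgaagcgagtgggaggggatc
Srf, both exact boxes, chr17:46556195-46556264, minus strand: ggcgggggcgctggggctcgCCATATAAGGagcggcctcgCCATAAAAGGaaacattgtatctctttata
The exact box began 161 bases before the start of Myl9 and 56 bases before that of Cnn2, and the boxes of Srf began 82 and 62 bases before its start.

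**Figure D1:**
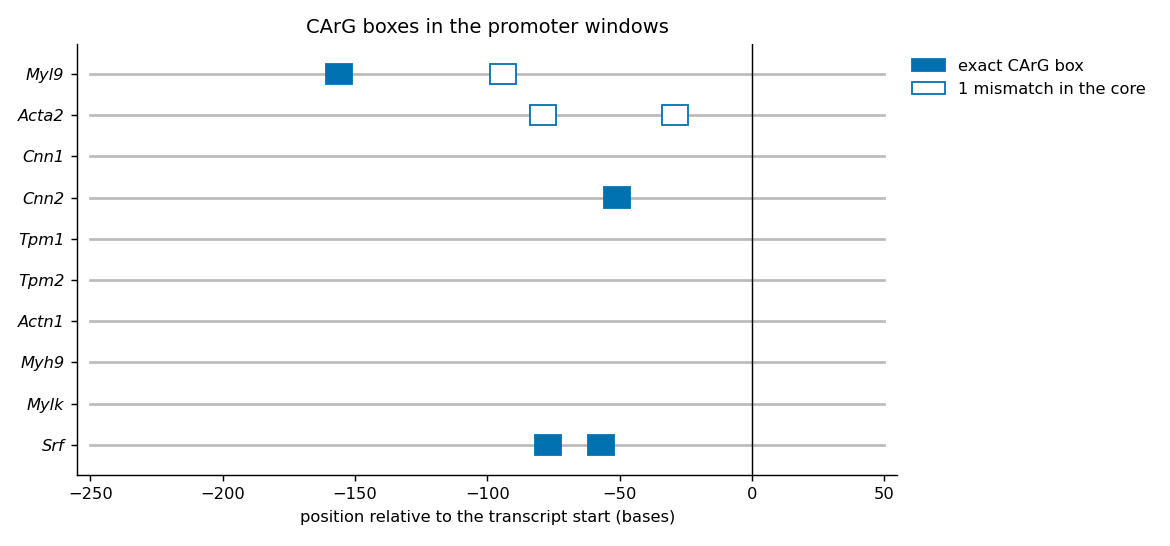
CArG boxes in the promoter windows of 9 contractile genes and of Srf, with the position relative to the transcript start in bases on the horizontal axis. Filled bars are exact boxes and open bars have 1 mismatch in the core. Exact boxes lay 161 bases before the start of Myl9, 56 bases before that of Cnn2, and 82 and 62 bases before that of Srf.

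Myl9 had log2 values of 8.91, 9.24 and 9.90 in the Dali knockdown arrays, against 7.84, 8.23 and 8.20 in the control arrays. The groups did not overlap, and the lowest knockdown array lay 0.67 above the highest control array. The mean was 9.35 ± 0.50 in knockdown and 8.09 ± 0.22 in control cells (SD, n = 3 each), a difference of 1.25 or 2.39-fold. Between arrays of the same replicate number the difference was 1.07, 1.00 and 1.69, so that it was about a doubling in pairs 1 and 2 and larger in pair 3. The range was 0.99 over the knockdown arrays and 0.39 over the control arrays. Leaving out any 1 array kept the difference between 0.98 and 1.47.

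**Figure D2:**
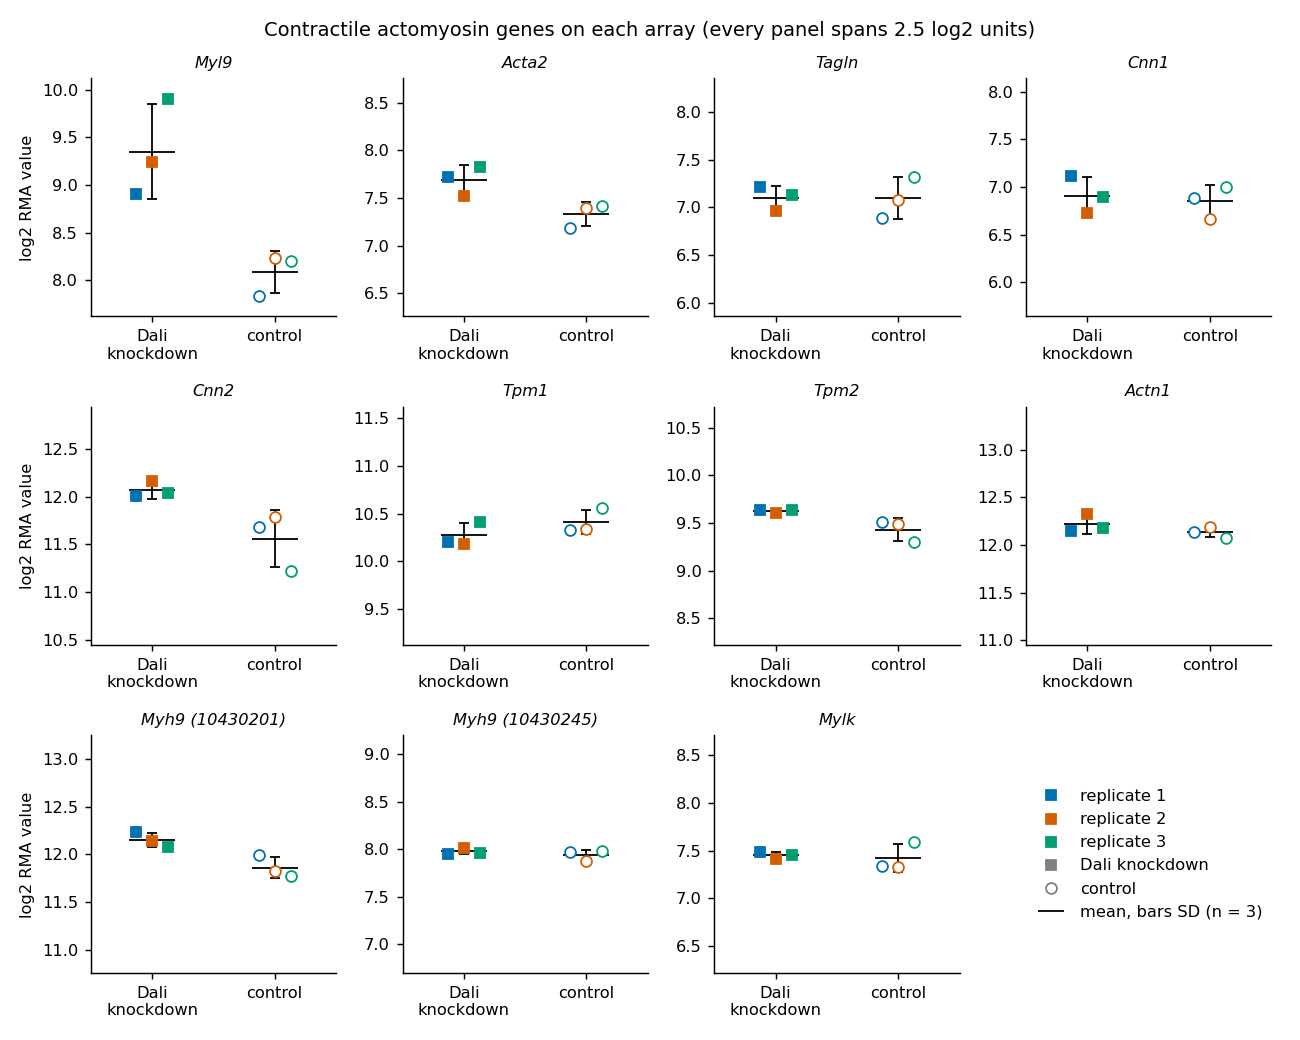
Log2 RMA values of the 11 probe sets on each array, with Dali knockdown (filled squares) left of control (open circles) and replicate numbers in colour. Horizontal lines are means and bars the SD (n = 3), and every panel spans 2.5 log2 units. Myl9 stands apart with means of 9.35 in knockdown and 8.09 in control cells, whereas Tagln has a mean of 7.10 in both groups.

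Of the other 9 genes, none passed the test when Dali knockdown and control arrays were compared as independent groups. The test was limma with Benjamini-Hochberg adjustment over the whole table, called at an adjusted p under 0.1 with at least a 1.3-fold change, which called 1.14% of 11705 probe sets (0.367% as higher). A filter on variance removed 4 of the 11 probe sets, those of Tpm2, Actn1, Mylk and 1 of Myh9, whose values come from the same fit without the filter (0.0513% of 23410 probe sets called as higher, 0.124% as lower). Without the filter, 4 of the 10 probe sets of these 9 genes had an unadjusted p under 0.05, against 10.7% of all annotated probe sets. With the replicate number as a block, which compares arrays within their numbers, Cnn2 alone of the 9 genes was called. That fit called 7.65% of all probe sets (2.77% as higher and 4.89% as lower).

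Cnn2, a calponin found in many non-muscle cells, had the largest difference after Myl9. Its log2 values were 12.01, 12.17 and 12.04 in knockdown arrays, against 11.68, 11.79 and 11.22 in control arrays. All knockdown arrays lay above all control arrays, and control replicate 3 was the lowest. The difference was 0.51 or 1.42-fold (95% interval 0.18 to 0.84, limma adjusted p = 0.16). With the replicate block the difference was the same, with a smaller limma adjusted p of 0.027, and Cnn2 was called. Without control replicate 3 the difference was 0.34. Without both arrays numbered 2 it was 0.57 and without both arrays numbered 3 it was 0.35, and in these settings the blocked fit called 0 and 1 of all probe sets, so that a missing call there says nothing about Cnn2.

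The other calponin and transgelin, both typical of differentiated smooth muscle, were called in neither fit. Cnn1 had log2 values of 7.12, 6.73 and 6.89 in knockdown arrays, against 6.88, 6.66 and 7.0 in control arrays. The groups overlapped, with a difference of 0.07 (95% interval -0.24 to 0.38, limma adjusted p = 0.93). Tagln had values of 7.21, 6.96 and 7.13 in knockdown arrays, against 6.89, 7.08 and 7.32 in control arrays. It differed by 0.01 (95% interval -0.31 to 0.32, limma adjusted p = 0.99), being higher in knockdown in pair 1 (0.33) and lower in pairs 2 and 3 (-0.12 and -0.19).

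Acta2, the smooth muscle alpha-actin, had values of 7.72, 7.52 and 7.83 in knockdown arrays, against 7.18, 7.39 and 7.42 in control arrays. The groups did not overlap but came within 0.10 of each other, and the pair differences of 0.54, 0.12 and 0.41 were uneven. The difference was 0.36 or 1.28-fold (95% interval 0.06 to 0.66, limma adjusted p = 0.29). With the replicate block its adjusted p was 0.053, but the fold stayed under 1.3 and it was not called.

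The heavy chain of non-muscle myosin IIA gave different answers at its probe sets. Myh9 at probe set 10430201 had values of 12.23, 12.14 and 12.08 in knockdown arrays, against 11.99, 11.83 and 11.77 in control arrays. These did not overlap, and the pair differences were 0.24, 0.31 and 0.31. The difference was 0.29 or 1.22-fold (95% interval 0.00 to 0.57, limma adjusted p = 0.38, or 0.050 with the replicate block at the same fold). Myh9 at probe set 10430245 lay at 7.95, 8.01 and 7.96 in knockdown arrays, against 7.97, 7.88 and 7.98 in control arrays, and differed by 0.03 (limma adjusted p = 0.94). Which part of Myh9 each probe set covers was not examined.

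The tropomyosin genes, whose products coil along the actin filament, had small differences of opposite sign. Tpm2 had values of 9.64, 9.61 and 9.64 in knockdown arrays, against 9.51, 9.49 and 9.30 in control arrays. The knockdown arrays had a range of 0.03 and lay above every control array, with a difference of 0.20 (limma adjusted p = 0.46). Tpm1 had values of 10.20, 10.18 and 10.41 in knockdown arrays, against 10.33, 10.34 and 10.56 in control arrays. Of the 11 probe sets, only this one had a lower mean in knockdown cells, and only this one was lower in all 3 pairs (19.7% of all annotated probe sets were). The groups overlapped, yet the pair differences were nearly equal at -0.13, -0.15 and -0.15. The difference of means was -0.14 (95% interval -0.44 to 0.15, limma adjusted p = 0.75, or 0.26 with the replicate block).

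Neither Actn1 nor Mylk differed detectably. Actn1, an alpha-actinin that bundles actin filaments, had values of 12.15, 12.33 and 12.18 in knockdown arrays, against 12.14, 12.19 and 12.07 in control arrays (difference 0.08, 95% interval -0.11 to 0.28, limma adjusted p = 0.83). Mylk, which phosphorylates the Myl9 protein, had values of 7.49, 7.41 and 7.45 in knockdown arrays, against 7.34, 7.33 and 7.59 in control arrays. The groups overlapped, with a difference of 0.03 (95% interval -0.19 to 0.25, limma adjusted p = 0.95).

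**Figure D3:**
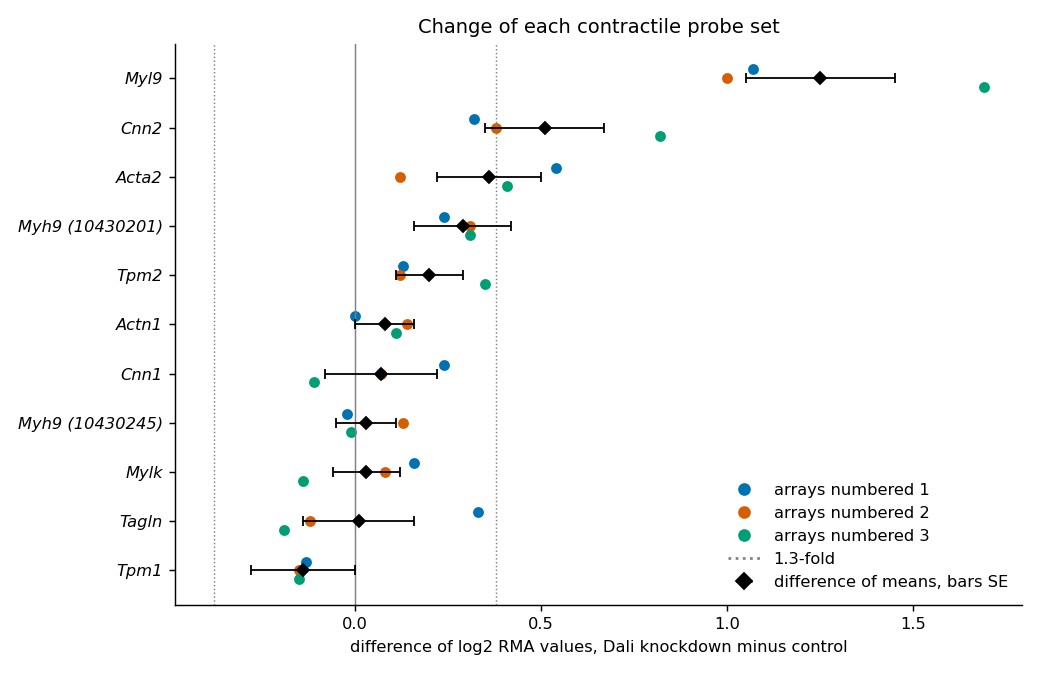
Difference of log2 RMA values, Dali knockdown minus control, for each of the 11 probe sets. Black diamonds are differences of group means with the SE of the fit, coloured points the differences between arrays of the same replicate number, and dotted lines mark a 1.3-fold change. Myl9 lies at 1.25 and Cnn2 at 0.51, and Tpm1 is the lowest at -0.14.

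Set side by side, the 10 probe sets other than Myl9 had a median difference of 0.08, against 0.02 for all annotated probe sets. A higher mean in knockdown cells was seen in 9 of the 10, against 55.2% of all annotated probe sets. Among the 9, Tagln (0.01), Mylk (0.03), Cnn1 (0.07) and 1 probe set of Myh9 (0.03) changed sign when arrays were left out. The genes were also chosen with earlier results of these data known, so these counts are descriptions. All knockdown arrays lay above all control arrays in 4 of the 10 (Cnn2, Acta2, Tpm2 and 1 probe set of Myh9), against 8.59% of all annotated probe sets, and 5 of the 10 were higher in all 3 pairs, against 21.7%. Among these genes the median difference within pairs 1, 2 and 3 was 0.20, 0.12 and 0.05.

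The probe sets most like Myl9 over the 6 arrays are listed as a description, since the values that chose Myl9 also define the likeness. Likeness was measured as the root mean square difference between the deviations of each probe set from its own mean, in log2 units, over 11064 probe sets that passed the variance filter. The closest was Ddc (0.333), the decarboxylase that makes dopamine and serotonin, with values of 8.16, 8.34 and 8.69 in knockdown arrays, against 7.53, 7.66 and 7.95 in control arrays. It was followed by Anp32b (0.389), an acidic nuclear protein, Thap2 (0.391), a zinc finger gene, Adgrl2 (0.392), an adhesion receptor of the latrophilin family, and Slc16a14 (0.396), of the monocarboxylate transporter family. Among the contractile genes the closest were Acta2 (0.519) and Cnn2 (0.534). They were less like Myl9 than 169 and 221 of the 11064 probe sets, and more like it than the rest. Myl9 had a larger difference than any of these, and the distance takes in the size of a change as well as its pattern. The ranking therefore does not show whether the Myl9 change was shared by contractile genes.

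The labelled cell type was checked against its markers, because contractile genes are also expressed by other cell types. All 14 measured genes of a neuroblastoma and neuronal list, among them Phox2a, Hand2, Gata3, Chga and Stmn2, lay above the median of every array (8.34 to 8.40). Of 12 markers of smooth muscle and pericytes, 8 lay below that median on every array and 2 above it. Those above it were Mcam (11.45 to 11.74) and Synpo2 (8.67 to 9.34), and Des and Pdgfrb lay on both sides of it. Of the markers that define smooth muscle, Myh11 had values of 7.68, 7.39 and 7.53 in knockdown arrays, against 7.47, 7.5 and 7.62 in control arrays, and Myocd lay between 6.44 and 6.84. The contractile genes themselves also lay on both sides of the median. Cnn2, Tpm1, Tpm2, Actn1 and 1 probe set of Myh9 lay above the median of every array, and Acta2, Tagln, Cnn1, Mylk and the other Myh9 probe set below it. Myl9 was above it on the 3 knockdown arrays and below it on the 3 control arrays. Probes differ in brightness, so a position below the median is a description and not a measure of absence.

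None of the marker lists of other cell types had a called member in the unblocked fit. The sum of log2 values over the 12 smooth muscle and pericyte markers ranged from 95.5 to 98.1 in knockdown arrays and from 97.3 to 98.9 in control arrays. It ranged from 62.5 to 64.3 in knockdown and from 62.8 to 64.0 in control arrays for 9 fibroblast markers, and from 67.3 to 68.8 in knockdown and from 67.0 to 68.7 in control arrays for 9 skeletal muscle markers. For 6 endothelial markers it ranged from 41.8 to 42.9 in knockdown and from 42.0 to 43.1 in control arrays. These lists overlapped between the groups. Of the pericyte markers Pdgfrb was called with the replicate block, as lower in knockdown cells by 0.64, 0.82 and 0.37 in the 3 pairs. For the 14 neuroblastoma and neuronal markers the sum ranged from 161.7 to 162.9 in knockdown arrays and from 163.1 to 164.1 in control arrays, with a median difference of -0.10 and 0 members called (limma, with or without the block). All knockdown arrays lay below all control arrays in 6 of the 14 (Phox2a, Hand2, Chga, Chgb, Uchl1 and Snap25), against 6.84% of all annotated probe sets. The part of this shift in the values above was not tested.

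Other genes of the pathway were described from 6 lists, of which 65 of 69 genes were measured by 85 probe sets. None was called by limma in the unblocked fit, which called 1.14% of all probe sets tested. Without the filter 7 of the 85 had an unadjusted p under 0.05, against 10.7% of all annotated probe sets. With the replicate block 3 of the 47 that passed the filter were called (6.38%, against 7.65% of all probe sets), namely Srf and Flna as higher and Rock1 as lower. The median difference over the 85 probe sets was 0.04, against 0.02 for all annotated probe sets.

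Srf, the transcription factor that binds the CArG box, had values of 9.95, 9.95 and 10.09 in knockdown arrays, against 9.69, 9.40 and 9.46 in control arrays. The groups did not overlap, and the difference was 0.48 or 1.39-fold (95% interval 0.19 to 0.77, limma adjusted p = 0.13, or 0.021 with the replicate block). Its cofactors were called in neither fit. Mrtfa, a myocardin-related factor that senses free actin, differed by -0.04 (limma adjusted p = 0.93). The 3 probe sets of Mrtfb, its close relative, differed by 0.00, -0.10 and -0.16 (limma adjusted p of 0.99, 0.86 and 0.68). Of the ternary complex factors Elk1, Elk3 and Elk4, which pair with SRF at early response genes, and of Myocd, none was called in either fit.

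Among 17 measured genes for actin crosslinkers and adhesion linkers, Flna, which crosslinks actin filaments below the membrane, had values of 12.38, 12.29 and 12.59 in knockdown arrays, against 12.08, 11.73 and 12.22 in control arrays. All knockdown arrays were above all control arrays, by 0.41 or 1.33-fold on average (limma adjusted p = 0.26, or 0.023 with the replicate block). Without control replicate 2 the difference was 0.27. Pdlim7, an actin-associated scaffold, differed by 0.34, 0.33 and 0.33 in the pairs, which stayed under 1.3-fold (limma adjusted p = 0.34, or 0.032 with the replicate block). The list had a median difference of 0.07.

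Among 19 measured genes that set light chain phosphorylation, Rock1, a kinase that phosphorylates the light chain and inhibits its phosphatase, had values of 10.03, 10.09 and 9.85 in knockdown arrays, against 10.54, 10.49 and 10.31 in control arrays. It differed by -0.46 with no overlap between the groups, which is 1.37-fold lower (95% interval -0.75 to -0.16, limma adjusted p = 0.15, or 0.014 with the replicate block). Rhoc, a small GTPase, differed by -0.27 (limma adjusted p = 0.42, or 0.067 with the replicate block). The list had a median difference of 0.05.

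The remaining lists held no called gene in either fit. Of the 7 myosin II chain genes, the other regulatory light chains, Myl12a and Myl12b, were the closest to Myl9 in kind. Myl12a differed by 0.02 (limma adjusted p = 0.98) and Myl12b by -0.24 (limma adjusted p = 0.50, or 0.084 with the replicate block, under 1.3-fold). Myl12b was lower in knockdown cells in all 3 pairs, as were 19.7% of all annotated probe sets. The 6 probe sets of Myl6, the essential light chain, differed by 0.10 to 0.13, and as they gave nearly the same values they may not be independent measures. Of the 4 actins measured by a probe set of their own, Actg2 differed by 0.13 and Acta1 by 0.09 (limma adjusted p of 0.82 and 0.88). Of the 11 thin filament genes, Tmod2, a neuronal cap of the actin pointed end, differed by -0.36 (limma adjusted p = 0.27, or 0.027 with the replicate block, under 1.3-fold), and Cnn3, the neural calponin, by -0.16 (limma adjusted p = 0.69). The medians of these lists were 0.11, 0.05 and -0.05.

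**Figure D4:**
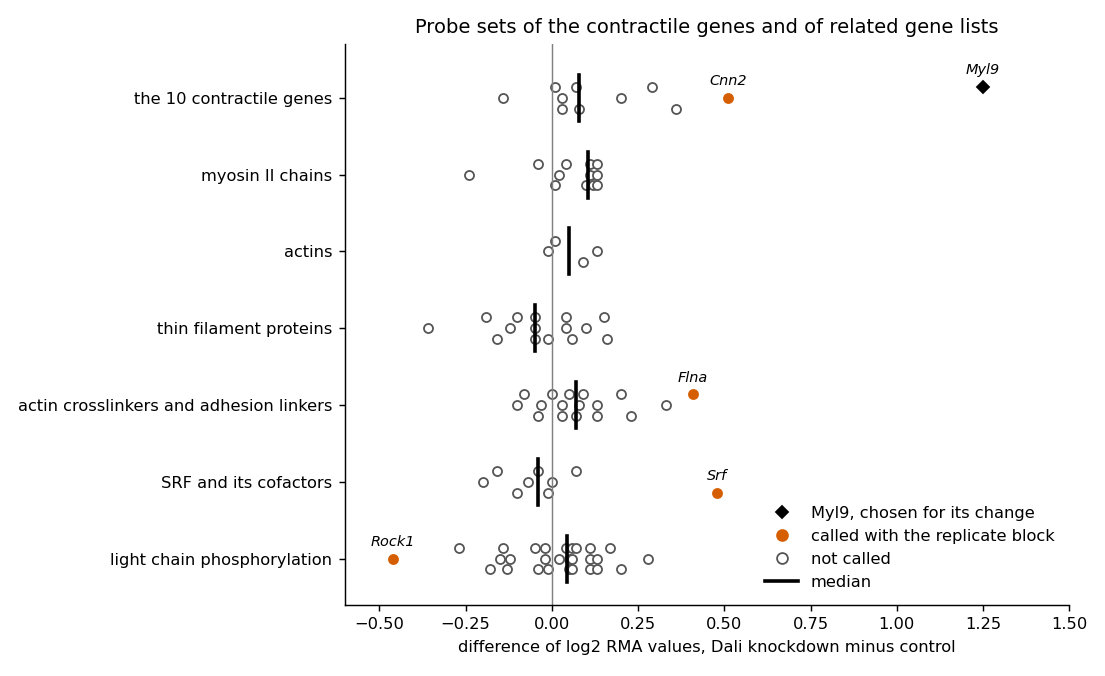
Difference of log2 RMA values, Dali knockdown minus control, for each probe set of the 10 contractile genes and of 6 related lists. Filled orange points were called with the replicate block, open points were not, the black diamond is Myl9, and vertical lines are medians. Srf (0.48), Flna (0.41) and Rock1 (-0.46) stand furthest from 0 in the related lists, whose medians lie between -0.05 and 0.11.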

How the data were processed

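The authors background corrected, quantile normalised and summarised the probe intensities of 6 arrays by RMA at the gene level, and deposited them as log2 values. Tool versions and the arrays normalised together are not given in the sources used here. Of 35556 rows, 21789 are annotated to 1 gene symbol and 1621 to several, and 12146 unlisted rows were left out. Symbols of 122 listed genes were matched through Entrez numbers to the GRCm38.p6 gene table, and 0 changed. Coordinates are given only for RefSeq promoter sequences, since the array annotation names no build.

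Following the study's methods, the 11705 of 23410 annotated probe sets with an interquartile range above the median (0.147) were compared with limma 3.58.1 in R 4.3.3 (two-sided, adjusted p under 0.1, at least 1.3-fold). Reading the variance cut-off as that median was a choice made here. Arrays of the same number in the labels deviated together from their group means (correlations of 0.141, 0.646 and 0.655), so the fit with the replicate block is given beside results it changes. For number 1 this was not specific, as knockdown replicate 2 correlated more with control replicate 1 (0.202). The unblocked fit and the rule for calling were tested on simulated arrays with independent noise, which did not cover the variance filter or the replicate block. The number of arrays limits the precision. Exact tests of 3 against 3 arrays cannot go below 0.1, so none is given.

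The members and gene lists were chosen with earlier results of these data known. Genes named were all 10 members, Myl12a, Myl12b, Srf, Mrtfa and Mrtfb, up to 4 called genes of each related list or the 2 with the smallest p, and the 5 most like Myl9. Flna and Rock1 also fall under this rule. The marker genes and Elk1, Elk3, Elk4 and Myocd were named outside it. Pdgfrb, Des, Mcam, Synpo2 and the neuronal markers listed as lying below all control arrays were named after their values were seen.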

Additional observations from a re-analysis of the deposited data

How the results depend on the processing

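Under the 7 alternatives that used all 6 arrays, the 11 contractile probe sets kept their direction in 77 of 77 values. Of these alternatives, only centring the arrays on their medians can change a difference of means. The agreement under the others was fixed in advance and is no evidence of stability. Of the 10 probe sets other than Myl9, whose change was not tested, 1 changed its call, Cnn2 with the replicate block (limma adjusted p = 0.027). The number called among the 9 genes other than Myl9 was 0, or 1 with the replicate block, and 0 to 1 when arrays were left out. In the related lists it was 0, or 3 with the replicate block, and 0 to 3 when arrays were left out. The 1 call without knockdown replicate 2 or without control replicate 3 was Rock1. With each array centred on its median, 1 Mrtfb probe set differed by 0.03 in place of 0.00. Of the differences close to 0, those of Tagln (-0.16 to 0.12), Cnn1 (-0.03 to 0.16), Mylk (-0.03 to 0.12), Myl12a (-0.06 to 0.10), Mrtfa (-0.08 to 0.04), 1 Myh9 probe set (-0.02 to 0.06) and 1 Mrtfb probe set (-0.04 to 0.04) changed sign when arrays were left out. With only single arrays left out the lowest values were -0.10 for Tagln, -0.07 for Mrtfa and -0.01 for Mylk, and without both arrays of a number Myl12a was at -0.02 (number 2) and -0.01 (number 3) and Mrtfb at 0.02 (number 1). The replicate block changed no call among the named genes of the contractile and related lists other than those of Cnn2, Srf, Flna and Rock1.

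Over all probe sets 133 were called, or 0 when rows without a gene symbol entered the filter, 32 at an adjusted p under 0.05, 41 without the filter and 896 with the replicate block. Leaving out arrays gave 0 to 926. Without knockdown replicate 1 there were 4 calls, and 508 without knockdown replicate 2. Without control replicates 1, 2 and 3 there were 53, 63 and 331. With the replicate block and both arrays of a number left out, a setting chosen after seeing the data, 926, 0 and 1 were called without numbers 1, 2 and 3, and Cnn2, Srf, Flna and Rock1 were called without number 1. With so few calls in the other 2 settings, their absence there says nothing about these genes. The cause was not tested.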

Other observations

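The share of windows with an exact CArG box was also counted over all genes called. In the fit without the block the box lay in the windows of 2 of 33 genes called as higher in Dali knockdown cells (6.06%), which were Kif20b and Myl9, and of 2 of 76 genes called as lower (2.63%). With the replicate block it lay in the windows of 5 of 242 genes called as higher (2.07%), which were Cnn2, Crxos, Kif20b, Myl9 and Srf, and of 8 of 430 genes called as lower (1.86%). Among all 8095 tested genes with a window the share was 1.69%. These shares are descriptions over windows of 300 bases and were not tested. Myl9 was chosen by its increase in this comparison, so its place in these counts supports nothing. Crxos and Kif20b were named after their values were seen.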
